A study of Mus musculus with 12 samples.

Results

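Immediate-early genes are a set of 10 genes, Fos, Fosb, Jun, Junb, Egr1, Atf3, Ier2, Ier3, Dusp1 and Zfp36, whose transcripts can appear within minutes of a stimulus. They were chosen by symbol from the 28694 gene rows of the single-cell matrices, and each symbol matched 1 row. All 10 had UMIs (unique molecular identifiers, which mark single captured RNA molecules) in all 4 libraries. The libraries were made from the meninges, the membranes around the brain, of C57Bl/6j mouse pups on postnatal day 4. The 2 groups compared were these: HI pups, taken 6 h after hypoxia-ischemia, a model of birth injury that combines lack of oxygen with reduced blood flow, and naive pups of the same age. Each group had 2 libraries, and each library pooled 12 pups, 6 males and 6 females. The libraries were processed in 2 runs of 1 HI and 1 naive library each. The sample numbers do not say which HI and naive library shared a run, so the tests carry no term for it. There was no sham group, so surgery and handling cannot be told apart from HI, and pooling hides the spread between animals.

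In the RefSeq annotation of GRCm38.p6, Fos is at chr12:85473890-85477274, Fosb at chr7:19302696-19310118, Jun at chr4:95049036-95052222, Junb at chr8:84976909-84978748 and Egr1 at chr18:34861207-34864956. Atf3 is at chr1:191170296-191183333, Ier2 at chr8:84661331-84662852, Ier3 at chr17:35821713-35822911, Dusp1 at chr17:26505591-26508472 and Zfp36 at chr7:28376784-28379228.

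Immediate-early genes need no new protein for their induction: kinases activated by growth factors, cytokines, calcium or stress act on factors already bound at their promoters. Fos, Fosb, Jun, Junb and Atf3 encode basic leucine zipper proteins of the AP-1 and ATF families, and Egr1 encodes a zinc finger transcription factor. Ier2 and Ier3 encode rapidly turned over nuclear and survival regulators. Dusp1 encodes a phosphatase that switches off MAP kinases, and Zfp36 encodes tristetraprolin, which binds AU-rich messages such as that of Tnf and promotes their decay. Releasing cells from tissue by digestion or trituration is also known to induce these genes in macrophages and microglia. No library of undissociated tissue was analysed here and the labels give no dissociation protocol, so the part of dissociation in the levels was not tested.

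The promoter table held 8 of the 10 genes, all but Egr1 and Ier2. The 250 bases before the start were searched on both strands for TGACG, the half-site of the cyclic AMP response element bound by CREB and ATF proteins, for the CArG box bound by serum response factor, and for the TATA box, TATAAA, which lies near many start sites. The half-site TGACG was present in 5 of these 8 promoters (Fos, Fosb, Junb, Atf3 and Dusp1), against 17.9% of 27025 mouse promoters. The CArG box was found in 1, that of Zfp36, against 1.399% of all promoters, and TATAAA in 1, that of Fos, against 12.97%. A match describes letters only and not a bound site, and sites further upstream were not searched. The last 200 bases before the start are shown for Fos and Dusp1, which were lower together in HI microglia, and for Junb and Zfp36, which were higher in HI classical monocytes. Capitals mark TGACG on either strand (its reverse is CGTCA) in Fos (chr12:85473690-85473889, plus strand), Junb (chr8:84978749-84978948, minus strand) and Dusp1 (chr17:26508473-26508672, minus strand), and the CArG box in Zfp36 (chr7:28379229-28379428, minus strand).
Fos: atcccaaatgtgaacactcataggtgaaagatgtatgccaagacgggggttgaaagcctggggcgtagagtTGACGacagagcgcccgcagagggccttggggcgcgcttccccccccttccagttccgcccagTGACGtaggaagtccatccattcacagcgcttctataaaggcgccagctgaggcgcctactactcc
Dusp1: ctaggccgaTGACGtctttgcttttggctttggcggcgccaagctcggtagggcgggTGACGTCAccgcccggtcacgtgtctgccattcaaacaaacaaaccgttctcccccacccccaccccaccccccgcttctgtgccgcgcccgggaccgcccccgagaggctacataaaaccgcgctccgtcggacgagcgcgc
Junb: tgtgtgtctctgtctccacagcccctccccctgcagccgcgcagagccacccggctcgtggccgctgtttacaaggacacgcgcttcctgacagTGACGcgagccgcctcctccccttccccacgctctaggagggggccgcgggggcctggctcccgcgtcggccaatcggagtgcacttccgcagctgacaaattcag
Zfp36: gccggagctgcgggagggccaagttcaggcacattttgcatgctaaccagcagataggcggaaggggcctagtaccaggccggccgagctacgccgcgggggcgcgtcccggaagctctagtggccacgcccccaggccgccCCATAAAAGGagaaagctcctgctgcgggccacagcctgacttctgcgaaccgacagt
TGACG began 129 and 66 bases before the start in Fos and 106 bases before it in Junb. In Dusp1 matches began 191 and 143 bases before the start, and the one at 143 bases overlapped a match on the other strand at 140 bases. The CArG box of Zfp36 began 58 bases before the start.

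The HI libraries held 4213 and 6421 barcodes and the naive libraries 5134 and 5954, with 51986763 to 68543046 UMIs per library. After filters and doublet removal 4070 and 6081 HI cells and 4912 and 5662 naive cells remained, with median UMIs of 9574 to 11091 per cell. Any 2 libraries shared 29 to 55 cell barcodes, at most 1.07% of the smaller. Cells were clustered without 64 rapid genes, the 10 members among them, so that these genes did not shape the classes, and clusters were named by marker lists. The kinases and upstream factors described below were not left out. Border-associated macrophages (BAM), which live in the meninges, were the largest class, with 2773 and 4174 HI cells and 2646 and 3438 naive cells. Microglia, the macrophages of brain tissue, numbered 524 and 654 in HI libraries and 691 and 535 in naive libraries. Non-classical monocytes numbered 182 and 382 HI cells and 284 and 432 naive cells, classical monocytes 52 and 78 HI cells and 90 and 67 naive cells, and dendritic cells 49 and 70 HI cells and 76 and 82 naive cells. These 5 classes had at least 40 cells in every library and were tested on UMIs summed per library. Levels are given as CPM, the gene's UMIs scaled to the total of that class in that library. They are compared between classes and libraries for 1 gene or for the sum of a gene list, and not between genes.

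Monocytes, mature neutrophils and basophils or mast cells carried the highest summed levels of the 10 genes. Classical monocytes had 3522 and 3269 CPM in HI libraries, against 1697 and 1954 CPM in naive libraries, so the groups did not overlap. Mature neutrophils had 3977 and 2454 CPM in HI libraries, against 1626 and 2241 CPM in naive libraries. Non-classical monocytes had 1611 and 2223 CPM in HI libraries, against 1645 and 1797 CPM in naive libraries, and here the groups overlapped. Basophils or mast cells, with 7 cells in HI 2 and 16 and 19 in the naive libraries, had 1538 CPM in HI 2, against 2581 and 2632 CPM in naive libraries. Dendritic cells had 1282 and 975 CPM in HI libraries, against 896 and 1441 CPM in naive libraries. BAM stood lower still, at 502 and 600.3 CPM in HI libraries, against 556 and 568 CPM in naive libraries. Microglia had 573 and 491 CPM in HI libraries, against 617 and 612 CPM in naive libraries. B cells, immature neutrophils and pre-B cells ranged from 277 to 654 CPM over their libraries. T cells had 728 and 551 CPM in HI libraries, against 445 and 357 CPM in naive libraries. Gamma-delta T or innate lymphoid cells had 656 and 781 CPM in HI libraries, against 444 and 602 CPM in naive libraries. In both of these classes HI lay above naive without overlap, but they held 26 to 65 cells per library and were not tested. Fibroblasts, with 2 to 8 cells per library, had 919 and 771 CPM in HI libraries, against 515 and 268 CPM in naive libraries.

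**Figure D1:**
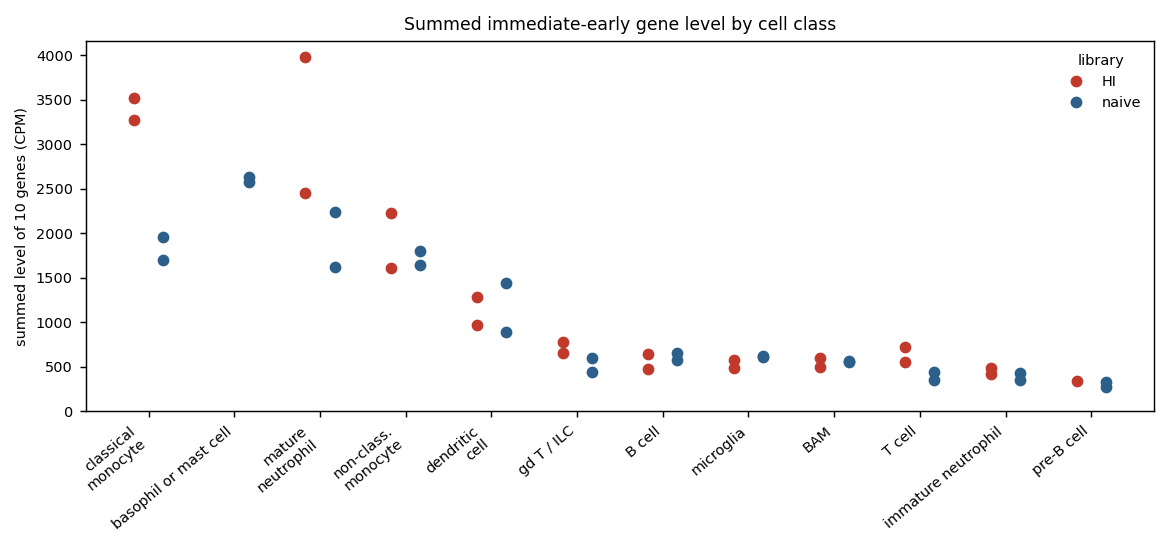
Summed level of the 10 genes (CPM of UMIs summed per class and library, linear axis) in each class with at least 10 cells in a library; each point is a library, HI left of naive, and classes run from the highest to the lowest mean. Classical monocytes in HI libraries sit at 3522 and 3269 CPM, above their naive libraries at 1697 and 1954 CPM, while BAM points lie between 502 and 600.3 CPM.

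Against BAM of the same libraries, both monocyte classes and dendritic cells had more RNA of Fos, Junb, Egr1, Atf3, Ier2 and Zfp36. In edgeR with a term per library, 9 members could be tested, all but Fosb. In classical monocytes 8 of 9 were higher than in BAM and none lower, where 53.3% of all 10419 genes were called in either direction (26% higher and 27.2% lower). Their Junb level was 822 and 781 CPM in HI libraries and 407 and 419 CPM in naive libraries, against 54.6 and 68.8 CPM in HI BAM and 51.6 and 48.5 CPM in naive BAM (log2 difference 3.54 ± 0.193 SE, edgeR adjusted p = 8.7e-12). Atf3 differed most in log2 terms, by 3.99 ± 0.275 (edgeR adjusted p = 2.83e-10), and Fos by 2.94 ± 0.392 (edgeR adjusted p = 3.05e-06). In non-classical monocytes 7 of 9 were higher than in BAM and 1, Jun, was lower (73.1% of genes called, 34.2% higher and 38.8% lower), and Ier2 stood 2.83 ± 0.134 above BAM on the log2 scale (edgeR adjusted p = 2.98e-13). In dendritic cells 6 of 9 were higher (51.7% of genes called, 25.6% higher and 26.1% lower), with Junb at 2.83 ± 0.191 log2 units above BAM (edgeR adjusted p = 1.9e-10). Jun did not pass in microglia, classical monocytes or dendritic cells. In classical monocytes it had 227 and 131 CPM in HI libraries and 127 and 78.3 CPM in naive libraries, against 128 and 144 CPM in HI BAM and 117 and 132 CPM in naive BAM, so the classes overlapped. Without HI 1 or without HI 2, Ier3 was no longer called in classical monocytes (0.63 and 1.41 against 1.51, edgeR adjusted p = 0.232 and 0.0643). Fos was no longer called in dendritic cells without HI 1 or without naive 2 (0.79 and 1.30 against 1.38, edgeR adjusted p = 0.176 and 0.102).

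Microglia differed from BAM in both directions. Junb, Egr1 and Atf3 were higher than in BAM and Ier2, Ier3 and Dusp1 lower, 6 of 9 members against 63.5% of all genes called (31.4% higher and 32% lower), a share close to that background. Atf3, a stress-induced repressor and activator of the ATF family, had 66.8 and 29.4 CPM in HI microglia and 47.8 and 47.3 CPM in naive microglia, against 3.20 and 4.18 CPM in HI BAM and 4.82 and 3.66 CPM in naive BAM. Every microglial library was above every BAM library (log2 difference 3.58 ± 0.178 SE, edgeR adjusted p = 1.58e-12). Ier2 ran the other way, at 43.5 and 36.8 CPM in HI microglia and 41.3 and 45.8 CPM in naive microglia, against 68.8 and 76.9 CPM in HI BAM and 92.9 and 97.3 CPM in naive BAM (log2 difference -0.97 ± 0.131, edgeR adjusted p = 2.99e-06). The calls of Ier3 and Dusp1 were lost without HI 2 (-1.08 and -0.82, edgeR adjusted p = 0.0892 and 0.138), and that of Dusp1 without naive 2 (-1.07, edgeR adjusted p = 0.08). Atf3 was at 0 UMIs in T cells of all 4 libraries, where 3 counts would be 6.55 to 11.5 CPM. Atf3 and Egr1 were both at 0 in immature neutrophils of all 4 libraries, where 3 counts would be 2.13 to 23.3 CPM. These limits cover counting error only.

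**Figure D2:**
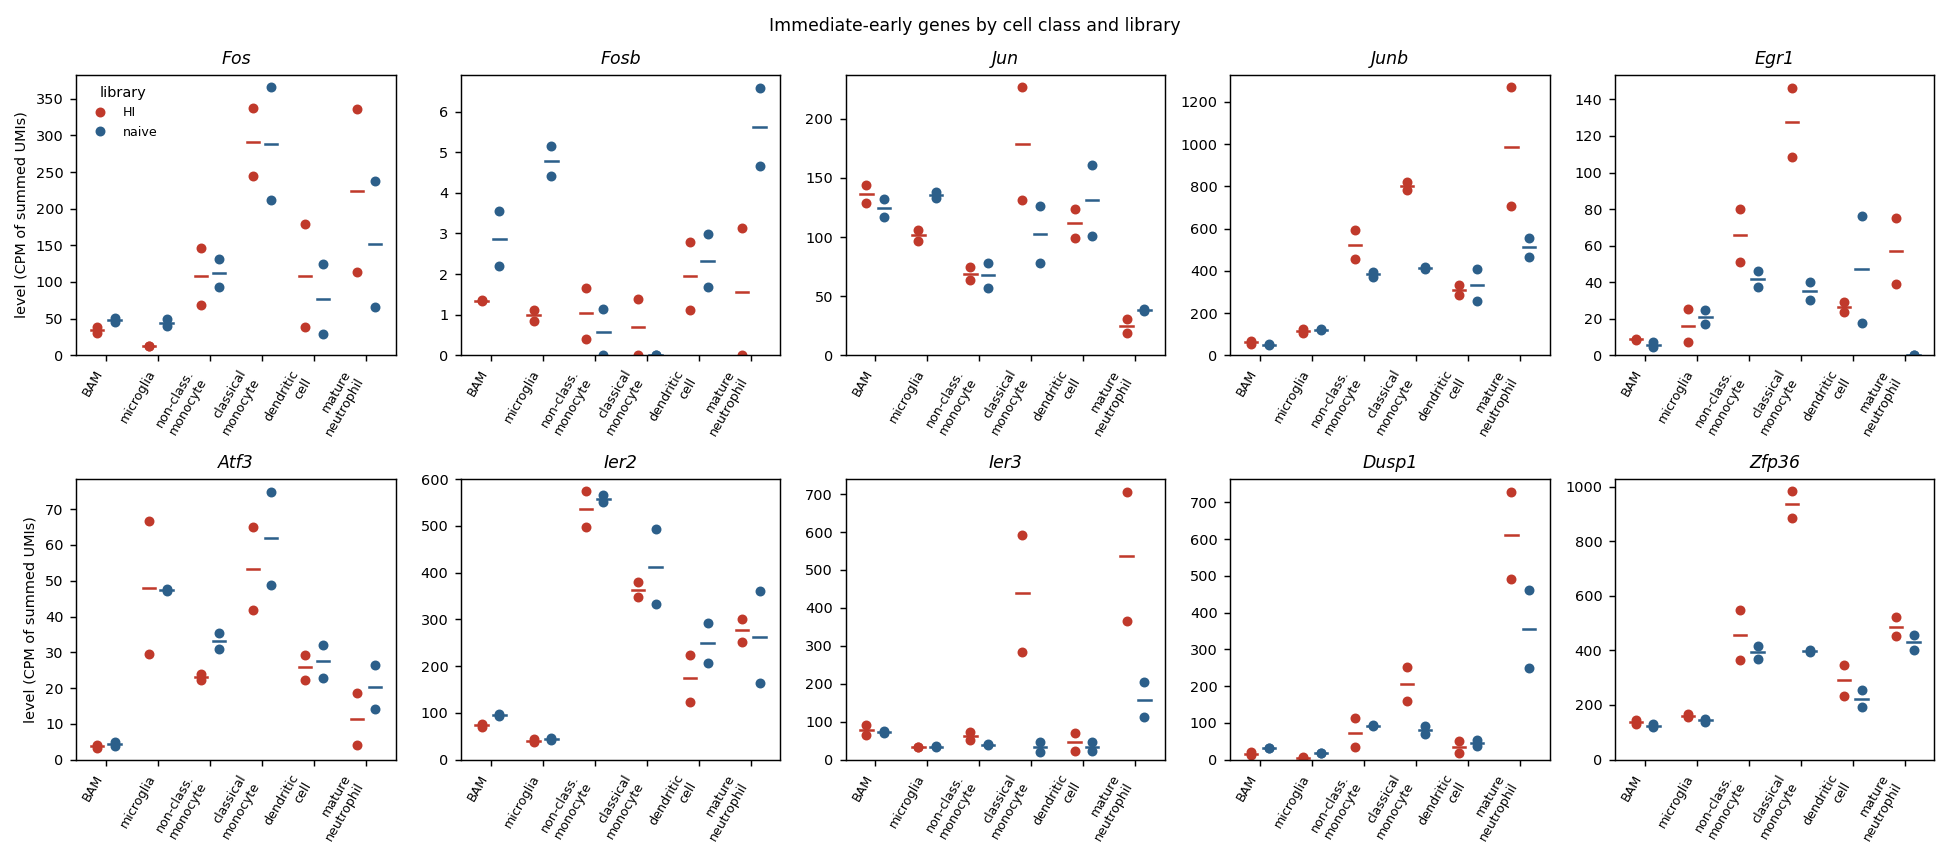
Level of each gene (CPM of UMIs summed per class and library, linear axes that start at 0 and differ between genes) in 6 classes; points are libraries, HI left of naive, and bars are the means of 2 libraries. Fos and Dusp1 in microglia and Junb, Egr1, Ier3 and Zfp36 in classical monocytes separate HI from naive without overlap, and dendritic cells overlap for all genes that were tested there.

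In BAM, HI went with less Dusp1 and Ier2 RNA. Dusp1 had 11.2 and 19.8 CPM in HI libraries, against 32.6 and 32.8 CPM in naive libraries. Both HI libraries lay below both naive libraries, and the log2 change was -1.05 ± 0.217 (SE, n = 2 each, edgeR adjusted p = 0.0382). Ier2 had 68.8 and 76.9 CPM in HI libraries, against 92.9 and 97.3 CPM in naive libraries, again with no overlap (log2 change -0.37 ± 0.0743, edgeR adjusted p = 0.0335). These were 2 of 10 members called lower and none higher, where 2.06% of 12698 genes were called lower, 2.7% higher and 4.76% in either direction. Across the members the median log2 change was -0.03, against 0.0025 for all genes.

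The other BAM members did not pass the threshold. Fos had 30.2 and 38.2 CPM in HI libraries, against 45.7 and 51.2 CPM in naive libraries (log2 change -0.49, edgeR adjusted p = 0.0592). Fosb had 1.36 and 1.33 CPM in HI libraries, against 3.54 and 2.204 CPM in naive libraries (log2 change -1.07, edgeR adjusted p = 0.0632). Both HI libraries lay below both naive libraries for each of these Fos family genes. Fos did pass in DESeq2 (-0.49, adjusted p = 0.00383) and, in edgeR, with doublets kept (adjusted p = 0.0471), with the per-cell gate (0.0368) and with no filter on low counts (2.21e-08). It also passed without HI 1 or HI 2, but those fits leave 1 HI library, which is assumed to vary like the naive ones. Fos did not pass with clusters made with the rapid genes, nor in every fit that left out a naive library. Junb (54.6 and 68.8 CPM in HI, against 51.6 and 48.5 CPM in naive) and Egr1 (9.09 and 8.24 CPM in HI, against 7.43 and 4.30 CPM in naive) lay above without overlap, with log2 changes of 0.32 and 0.58 and edgeR adjusted p of 0.153 and 0.176. In all, 4 of 10 members lay wholly below and 3 wholly above in HI, where 28.2% of genes lay wholly below and 24.4% wholly above. Without naive 1 neither Ier2 (-0.41, edgeR adjusted p = 0.129) nor Dusp1 (-1.06, edgeR adjusted p = 0.139) passed, nor did they without naive 2 (-0.34 and -1.05, edgeR adjusted p = 0.162 and 0.0807) or with clusters made with the rapid genes (-0.36 and -1.02, edgeR adjusted p = 0.0543 and 0.0662). Dusp1 did not pass in DESeq2 (-1.06, adjusted p = 0.134), and its log2 change was -0.69 without HI 1 and -1.56 without HI 2.

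Some BAM clusters held few cells of 1 group, so the genes were followed within clusters. Clusters 13 and 22 held mostly HI cells, with 192 and 231 HI cells against 5 and 10 naive cells in cluster 13, and 84 and 131 HI cells against 10 and 16 naive cells in cluster 22. Cluster 2 also held more HI cells, 580 and 729 against 168 and 212 naive cells, and was kept when clusters 13 and 22 were left out. Cluster 13, led by the chemokine genes Ccl12, Ccl7 and Ccl2, had a summed member level of 948 and 1302 CPM in HI libraries. It carried 54.8 and 52.6 CPM of Egr1 and 141 and 252 CPM of Junb, but 4.66 and 7.22 CPM of Dusp1. When clusters 13 and 22 were left out, the log2 change of Egr1 in BAM was -0.20 and that of Junb 0.05, Ier2 (-0.49, edgeR adjusted p = 0.0162) and Fos (-0.55, edgeR adjusted p = 0.0344) were called lower, where 1.24% of genes were, and Dusp1 stood at -0.99 (edgeR adjusted p = 0.0531). Cluster 3, with BAM markers beside neuronal genes such as Stmn2 and Map1b, was left unnamed and held 58 and 166 HI cells against 619 and 618 naive cells. With it counted as BAM, 4 of 10 members were called lower, where 3.46% of 13020 genes were: Fos (-0.53, edgeR adjusted p = 0.0364), Fosb (-1.08, 0.0445), Ier2 (-0.39, 0.0246) and Dusp1 (-1.07, 0.0271).

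Within the 10 BAM clusters that had at least 40 cells in every library, Dusp1 had a negative log2 change in 10 of 10 clusters and passed the threshold in 6, with values between -1.30 and -0.31. Ier2 was negative in 10 of 10 and passed in 5, and Fos was negative in 9 of 10 and passed in 3, where 0.0478 to 1.63% of genes per cluster were called lower. Cluster 0, the largest, where 1.63% of genes were called lower, had 29.7 and 36.2 CPM of Fos in HI libraries, against 52.6 and 70.3 CPM in naive libraries (log2 change -0.90 ± 0.132, edgeR adjusted p = 7.45e-05). In the same cluster Dusp1 had 16.1 and 24.9 CPM in HI libraries, against 42.9 and 46.2 CPM in naive libraries (-1.10 ± 0.152, edgeR adjusted p = 3.5e-05). Egr1, which had 2.03 and 3.08 CPM in HI libraries, against 11.1 and 4.86 CPM in naive libraries, also fell there (-1.54, edgeR adjusted p = 0.0188), against its positive value over BAM as a whole. The clusters share libraries and are not independent of each other. Markers of neurons or glia, summed over 6 genes that all had UMIs, stood at 73.1 and 86.1 CPM in HI BAM, against 139.9 and 130.02 CPM in naive BAM. Microglia markers, of which all 10 had UMIs, stood at 1275 and 1217 CPM in HI BAM, against 1354 and 1430 CPM in naive BAM, and the 10 markers of BAM themselves at 22158 and 22199 CPM in HI BAM, against 21269 and 21134 CPM in naive BAM. The part of these lists in the result was not tested.

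**Figure D3:**
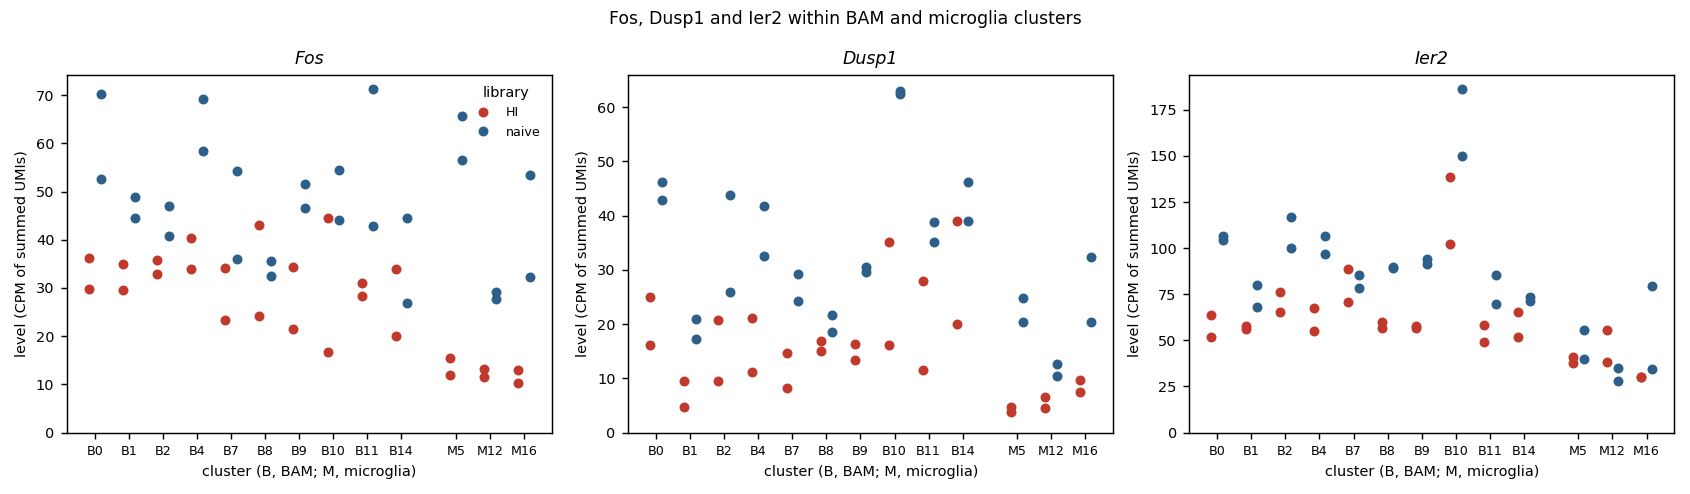
Level of Fos, Dusp1 and Ier2 (CPM, linear axes) within 10 BAM clusters (B) and 3 microglia clusters (M) that had at least 40 cells in every library; points are libraries, HI left of naive. Both HI points of Fos lie below both naive points in each microglia cluster, and Dusp1 of cluster B0 is at 16.1 and 24.9 CPM in HI, against 42.9 and 46.2 CPM in naive.

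In microglia, Fos and Dusp1 were lower in HI by more than 3-fold. Fos had 13.1 and 12.0 CPM in HI libraries, against 48.9 and 39.9 CPM in naive libraries. The HI libraries lay close together and well below both naive libraries (log2 change -1.84 ± 0.142 SE, 3.58-fold lower, edgeR adjusted p = 0.00829). Dusp1 had 4.99 and 5.76 CPM in HI libraries, against 18.6 and 17.8 CPM in naive libraries (log2 change -1.77 ± 0.165, 3.41-fold lower, edgeR adjusted p = 0.00983). These 2 members were among 5 genes called lower and 14 called in either direction of 10969 tested (0.0456% and 0.128%, with 0.082% called higher). Fosb had 1.12 and 0.840 CPM in HI libraries, against 5.14 and 4.41 CPM in naive libraries, and did not pass (log2 change -2.29, edgeR adjusted p = 0.0523). Jun had 106 and 96.8 CPM in HI libraries, against 133 and 138 CPM in naive libraries (-0.43, edgeR adjusted p = 0.1001). For each of these 4 genes both HI libraries lay below both naive libraries, as did 21.5% of all genes, and for Zfp36 both lay above, as did 25.7%. The calls of Fos and Dusp1 held without any 1 of the 4 libraries. The median log2 change of the members was -0.26, against -0.00074 for all genes.

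Cluster 5 of the microglia, led by Tmem119, P2ry12 and Siglech, markers of resting microglia, had 242 and 414 HI cells and 396 and 306 naive cells. There Fos had 15.5 and 12.0 CPM in HI libraries, against 65.8 and 56.5 CPM in naive libraries (log2 change -2.20 ± 0.166, edgeR adjusted p = 6.73e-19), and 6 of 10 members were called lower, where 3.21% of 9982 genes were: Fos, Fosb, Jun, Junb, Egr1 and Dusp1. Egr1 had 23.5 and 7.98 CPM in HI libraries, against 41.4 and 30.6 CPM in naive libraries of that cluster (-1.37, edgeR adjusted p = 1.5e-06). In cluster 12, led by Gpnmb, Spp1 and Csf1, Egr1 had 36.8 and 11.1 CPM in HI libraries, against 6.08 and 7.07 CPM in naive libraries, and did not pass (edgeR adjusted p = 0.234). In that cluster Fos had 13.1 and 11.6 CPM in HI libraries, against 27.6 and 29.1 CPM in naive libraries (-1.20, edgeR adjusted p = 0.163). The difference between clusters was not tested. Mature neutrophil markers in microglia summed to 221 and 81.2 CPM in HI libraries and 303 and 98.0 CPM in naive libraries, so the groups overlapped. Among the lists without overlap, the 10 markers of microglia stood at 15891 and 18527 CPM in HI libraries, against 20175 and 20828 CPM in naive libraries. Classical monocyte markers, with 4 or 5 of 7 detected, stood at 18.6 and 14.6 CPM in HI libraries, against 6.65 and 7.34 CPM in naive libraries. BAM markers, with all 10 detected, stood at 1234 and 823 CPM in HI libraries, against 1251 and 1254 CPM in naive libraries. Neuron or glia markers, with all 6 detected, stood at 109 and 123 CPM in HI libraries, against 135 and 132 CPM in naive libraries, and the part of these lists in the result was not tested.

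**Figure D4:**
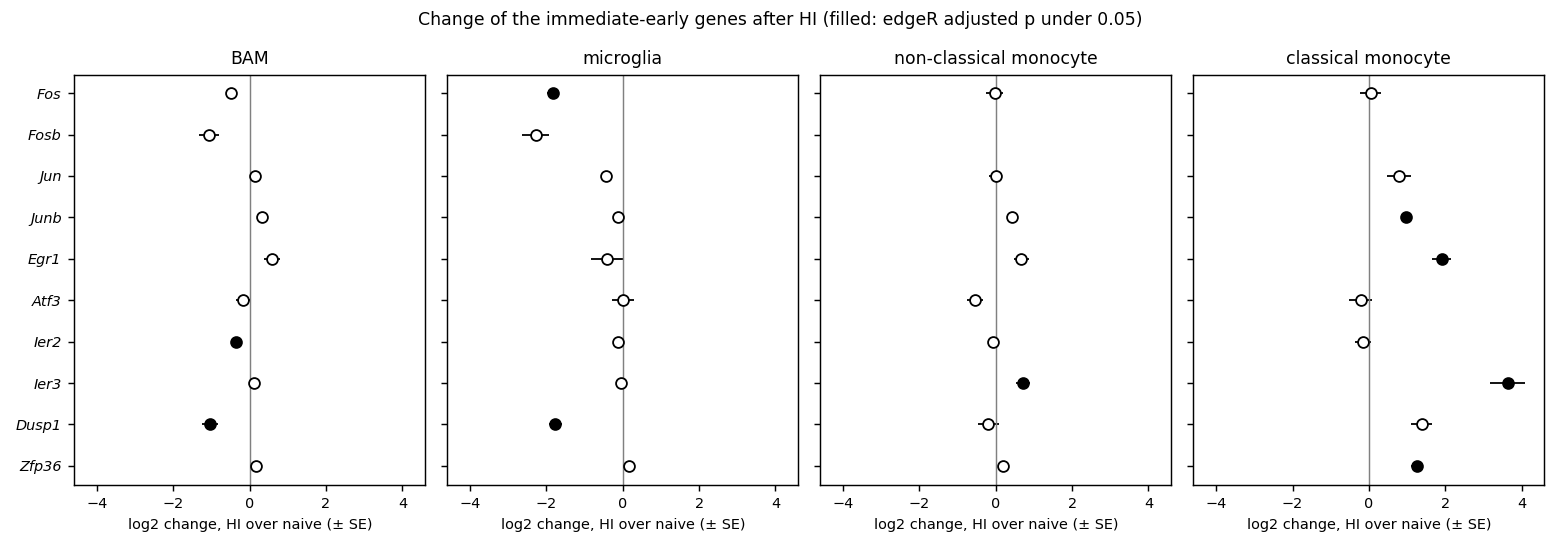
Log2 change of each gene, HI over naive, in 4 classes; points are edgeR estimates from 2 libraries per group, bars are standard errors, and filled points passed an adjusted p of 0.05. Fos and Dusp1 lie at -1.84 and -1.77 in microglia, and Ier3 lies at 3.64 in classical monocytes.

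In classical monocytes 4 members were higher in HI and none lower, where 0.904% of 6855 genes were called higher, 0.102% lower and 1.01% in either direction. Ier3, a gene induced by NF-kB and stress that modulates survival, had 593 and 284 CPM in HI libraries, against 47.6 and 19.1 CPM in naive libraries (log2 change 3.64 ± 0.462, 12.5-fold, edgeR adjusted p = 0.0176). Over 10 alternative settings its log2 change ran from 3.015 to 4.512. Egr1 had 109 and 146 CPM in HI libraries, against 30.4 and 40.02 CPM in naive libraries (1.91 ± 0.258, 3.75-fold, edgeR adjusted p = 0.0212). Zfp36 had 884 and 985 CPM in HI libraries, against 395 and 400.2 CPM in naive libraries (1.25 ± 0.143, edgeR adjusted p = 0.0147). Junb had 822 and 781 CPM in HI libraries, against 407 and 419 CPM in naive libraries (0.98 ± 0.139, edgeR adjusted p = 0.0249). In each of these 4 genes the groups were clearly apart. Dusp1, at 252 and 159 CPM in HI libraries, against 70.9 and 90.5 CPM in naive libraries, did not pass (log2 change 1.38, edgeR adjusted p = 0.0756), and Fos overlapped, at 245 and 337 CPM in HI libraries, against 212 and 365 CPM in naive libraries. In all, 6 of 9 tested members lay wholly above in HI, as did 22% of genes, and the median log2 change was 0.98, against -0.0044 for all genes. Ier3 in classical monocytes had UMIs in 48.1% and 35.9% of HI cells, against 25.6% and 8.96% of naive cells.

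Neutrophil markers moved with this result. Summed over 8 mature neutrophil markers, classical monocytes had 11938 and 14352 CPM in HI libraries, against 1991 and 3901 CPM in naive libraries, with 7 and 8 markers detected in HI and 6 and 7 in naive. S100a8 had 8756 and 10677 CPM in HI libraries, against 1528.5 and 3299 CPM in naive libraries, and S100a9 had 2767 and 2728 CPM in HI libraries, against 322 and 381 CPM in naive libraries. Il1r2 had 152 and 366 CPM in HI libraries, against 14.2 and 5.22 CPM in naive libraries. Mmp8 had 171 and 459 CPM in HI libraries, against 45.5 and 99.2 CPM in naive libraries, and Cxcr2 had 27.9 and 21.2 CPM in HI libraries, against 0 and 3.48 CPM in naive libraries. These 5 lay wholly above in HI, Csf3r and G0s2 did not, and Retnlg was at 0 and 1 UMI in HI libraries and at 0 in both naive libraries. Non-classical monocyte markers, with 6 or 7 of 7 detected, stood at 90.5 and 248 CPM in HI classical monocytes, against 441 and 557 CPM in naive ones. Immature neutrophil markers, with 4 to 7 of 8 detected, stood at 408 and 707 CPM in HI libraries, against 60.7 and 148 CPM in naive libraries. The 7 markers of the class itself overlapped, at 4177 and 5878 CPM in HI libraries, against 5775 and 6709 CPM in naive libraries. The part of these lists in the result was not tested. When a library was left out, Junb lost its call without HI 1 (0.93, edgeR adjusted p = 0.115) and without HI 2 (1.02, edgeR adjusted p = 0.0758), and Ier3, Egr1 and Zfp36 kept theirs. When the clusters were rebuilt with the rapid genes included, none of the 4 passed, with log2 changes of 3.39 for Ier3, 1.57 for Egr1, 1.08 for Zfp36 and 0.91 for Junb (edgeR adjusted p = 0.0663, 0.136, 0.051 and 0.0597).

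In non-classical monocytes, the patrolling type, Ier3 was higher in HI. Ier3 had 52.0 and 73.1 CPM in HI libraries, against 37.6 and 39.9 CPM in naive libraries (log2 change 0.70 ± 0.180, edgeR adjusted p = 0.0417), 1 of 9 tested members called, where 1.25% of 8509 genes were called higher, 1.55% lower and 2.8% in either direction. That call was lost without HI 2 (0.36, edgeR adjusted p = 0.683), in DESeq2 (adjusted p = 0.633), with the per-cell gate (edgeR adjusted p = 0.0628) and with clusters made with the rapid genes (edgeR adjusted p = 0.0729). Junb had 455 and 592 CPM in HI libraries, against 371 and 396 CPM in naive libraries (0.43, edgeR adjusted p = 0.06), and Egr1 had 51.2 and 80.1 CPM in HI libraries, against 37.6 and 46.1 CPM in naive libraries (0.66, edgeR adjusted p = 0.0823). These 3 lay wholly above, as did 24.5% of genes, and Atf3 wholly below, as did 17.7%. HI 2 was the higher HI library for each tested member except Atf3, and mature neutrophil markers in this class stood at 686 and 1961 CPM in HI libraries, against 402.5 and 729 CPM in naive libraries. BAM markers, with 9 or 10 of 10 detected, stood at 370 and 190 CPM in HI libraries, against 120.1 and 108 CPM in naive libraries, and the 7 markers of the class itself at 4182 and 4002 CPM in HI libraries, against 5744 and 5270 CPM in naive libraries. The part of these lists in the result was not tested.

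In dendritic cells no member passed, nor did any of 7216 genes in edgeR (0%) or in DESeq2, with 305 genes at an unadjusted p under 0.05 in edgeR and 47 in DESeq2. The libraries of a group differed widely: Fos had 179.6 and 38.0 CPM in HI libraries, against 28.7 and 125 CPM in naive libraries, and for all 9 tested members the groups overlapped. Mature neutrophils, with 84 and 104 HI cells and 25 and 44 naive cells, were fitted in addition after their levels were seen, and none of 8 tested members passed (20 of 3528 genes called, 0.567%, with 0.539% higher and 0.0283% lower). Their Ier3 was at 706 and 365 CPM in HI libraries, against 204 and 112 CPM in naive libraries (log2 change 2.36, edgeR adjusted p = 0.0698). Junb was at 1268 and 706 CPM in HI libraries, against 467 and 556 CPM in naive libraries (1.52, edgeR adjusted p = 0.0958), and Dusp1 at 728 and 492 CPM in HI libraries, against 250.1 and 462 CPM in naive libraries (1.34, edgeR adjusted p = 0.155). Egr1 had 77 UMIs in HI neutrophils and none in naive ones, which is at least 6.80-fold higher against a floor of 3 counts over the naive group.

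The classes were compared directly by testing the difference of their HI changes. Classical monocytes differed from BAM in 3 members, with log2 changes higher by 3.43 for Ier3, 2.44 for Dusp1 and 1.05 for Zfp36 (1.42% of 12339 genes called, 1.07% higher and 0.348% lower). They differed from microglia in 6 members, Ier3, Dusp1, Egr1, Fos, Junb and Zfp36, each with the higher log2 change in classical monocytes (0.97% of 10923 genes called, 0.87% higher and 0.101% lower). Of these, Ier3 and Dusp1 passed without any 1 library. Without naive 1, Fos (1.37, edgeR adjusted p = 0.122), Junb (1.05, 0.129), Egr1 (0.606) and Zfp36 (1.16, 0.0741) did not pass, without naive 2 Junb (1.14, 0.0631), Egr1 (2.85, 0.184) and Zfp36 (1.03, 0.0848) did not, and Egr1 did not with RLE size factors (2.48, 0.0564). Microglia differed from BAM in Fos, by -1.34 ± 0.186 (edgeR adjusted p = 0.0137), and in Jun, by -0.56 ± 0.109 (edgeR adjusted p = 0.0463), where 0.475% of 12642 genes were called lower and 0.19% higher (0.664% in all). Jun did not pass without naive 1 (-0.51, edgeR adjusted p = 0.0782). For Dusp1 the same difference was -0.69 ± 0.201 and did not pass (edgeR adjusted p = 0.183). Non-classical monocytes differed from BAM in Dusp1 by 0.71 ± 0.169 (edgeR adjusted p = 0.00239, 2.58% of genes called, 0.737% higher and 1.84% lower) and from microglia in Fos by 1.77 ± 0.294 (edgeR adjusted p = 0.0087, 0.47% of genes called, 0.289% higher and 0.181% lower). The Dusp1 difference was 0.0019 without HI 2 (edgeR adjusted p = 1) and 0.70 without naive 2 (edgeR adjusted p = 0.146), and the Fos difference was 1.38 without naive 1 (edgeR adjusted p = 0.253). No member differed between classical and non-classical monocytes, where 3 of 8140 genes (0.0369%) did, each with the higher change in classical monocytes (0% lower), and 594 had an unadjusted p under 0.05 in edgeR.

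Counted in cells, the members were sparse. When every cell was thinned to 3000 UMIs, which left out no cell, Fos was detected in 4.01% of HI 1 microglia (exact 95% interval 2.50 to 6.06%) and in 3.21% of HI 2 microglia (2.00 to 4.87%), against 14.8% of naive 1 (12.2 to 17.6%) and 12.7% of naive 2 microglia (10.0 to 15.8%). Before thinning these shares were 12.98% and 11.3% in HI microglia, against 31.5% and 29.7% in naive microglia. In BAM, thinned Dusp1 was detected in 3.39% and 5.75% of HI cells, against 8.43% and 9.37% of naive cells, with unthinned shares of 10.1% and 14.9% in HI cells, against 22.8% and 22.4% in naive cells. No cell type of these libraries is known to lack the genes, so no background share could be set beside these values. The median BAM cell carried 1 of the 10 genes at this depth in each library, with 30.7% and 27.2% of HI BAM at 0, against 27.9% and 26.5% of naive BAM. Cells with 5 or more members made up 1.15% and 2.13% of HI BAM, against 1.93% and 1.69% of naive BAM, and 23.1% and 17.9% of HI classical monocytes, against 12.2% and 17.9% of naive ones. In classical monocytes Zfp36 was detected in 75.0% and 82.1% of thinned HI cells, against 68.9% and 70.1% of naive cells. Ier3 was in 30.8% and 21.8% of HI cells, against 10% and 2.99% of naive cells. Egr1 was in 21.15% and 14.1% of HI cells, against 5.56% and 8.955% of naive cells. Shares for Junb overlapped, at 55.8% and 65.4% of HI cells, against 65.6% and 64.2% of naive cells. The 10% of these cells with the most member UMIs held 40.7% and 48.4% of those UMIs in HI libraries. In naive libraries they held 29.3% and 32.55%.

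Over pairs of members within BAM the correlation of thinned log counts had a median of 0.048 to 0.078 per library and reached at most 0.208, over cells that share a library and 1 fixed depth. The genes most like the summed members over BAM cells, among 3912 genes that were detected in at least 10% of cells, were led by the chemokine genes Ccl12, Ccl2 and Ccl7, with mean correlations over the 4 libraries of 0.208, 0.165 and 0.162. Malat1, Nfkbia, Klf6, C5ar1, Zfp36l1, Il4ra and Srgn followed, between 0.081 and 0.115. These correlations are weak, in counts so sparse that the median cell held 1 member, and no reading is drawn from their size. Over the 20 combinations of tested class and library, among 5678 genes, the profiles most like the member mean were those of Tarm1 (r = 0.91), Atg3, Rnh1, Prdx6, Mrpl4, Csf2rb, Glrx, Jarid2, Plec and Cox5b (down to 0.85). The points share libraries and classes, so these are descriptions only. Of the members themselves, Zfp36 (r = 0.92), Egr1 (0.89), Dusp1 (0.89) and Junb (0.88) followed the mean most closely and Jun least (0.18). Fosb, under 20 CPM, was not ranked. The mean contains each member, which raises these values.

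Other rapid genes were described by 5 lists. In BAM, the class with the most genes called, 4 genes of the lists passed. Of all 12698 genes tested there 4.76% were called, 2.7% higher and 2.06% lower. Each list had at most 1 call, near what this share would give, and no trait of the lists is read from it. Myc, a growth regulator, had 40.8 and 34.2 CPM in HI libraries, against 16.5 and 19.1 CPM in naive libraries (log2 change 1.08, edgeR adjusted p = 0.00228), the only 1 of 11 tested further immediate-early transcription factors to pass. Socs3, which feeds back on cytokine receptors, had 10.7 and 16.1 CPM in HI libraries, against 1.91 and 1.62 CPM in naive libraries (2.95, edgeR adjusted p = 0.00182), 1 of 17 tested feedback and stress regulators. Tnf, a cytokine whose message Zfp36 destabilises, had 18.8 and 18.2 CPM in HI libraries, against 11.2 and 12.0 CPM in naive libraries (0.68, edgeR adjusted p = 0.00662), 1 of 9 tested cytokine and chemokine genes. Mapk14, the p38 kinase that Dusp1 can dephosphorylate, had 49.6 and 48.0 CPM in HI libraries, against 57.3 and 59.8 CPM in naive libraries (-0.25, edgeR adjusted p = 0.0486), 1 of 14 kinases and upstream factors. Myc and Socs3 were also higher in microglia, with log2 changes of 1.08 and 2.30 (edgeR adjusted p = 0.00829 and 0.0201), where 0.082% of 10969 genes were called higher. The median log2 changes in BAM were 0.13 for further transcription factors, -0.20 for feedback regulators, 0.68 for cytokines and -0.09 for upstream genes, against 0.0025 for all genes.

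Of heat shock genes seen with tissue dissociation, 0 of 11 tested were called in BAM (4.76% of all genes), 0 of 9 in microglia (0.128%) and in non-classical monocytes (2.8%) and 0 of 8 in classical monocytes (1.01%) and in dendritic cells (0%), counts that these shares would also give. Their summed level in BAM was 4326 and 4549 CPM in HI libraries, against 3894 and 4248 CPM in naive libraries, and in microglia 5566 and 5731 CPM in HI libraries, against 4610 and 5019 CPM in naive libraries. In classical monocytes it was 4611 and 4526.5 CPM in HI libraries, against 3789 and 4205.5 CPM in naive libraries. Both HI libraries lay above both naive libraries in each of these classes, as did 24.4%, 25.7% and 22% of single genes there. In non-classical monocytes and dendritic cells the groups overlapped. The part of dissociation in these results was not tested. Outside BAM the genes of the lists were named after their values were seen. In non-classical monocytes Jund, Klf2 and Ppp1r15a were lower (log2 changes -0.65, -0.62 and -1.12) and Socs3 higher (0.66). There 1.55% of 8509 genes were called lower and 1.25% higher. In classical monocytes 5 of 7 tested cytokine and chemokine genes were higher, where 0.904% of all genes were: Il1b, Ccl2, Ccl3, Ccl4 and Cxcl2. Il1b had 2205 and 713 CPM in HI libraries, against 42.5 and 59.2 CPM in naive libraries, and Cxcl2 had 1280 UMIs in HI libraries and none in naive ones, at least 426-fold higher against 3 counts over the naive group. Nr4a2 and Socs3 were also higher there, by 3.72 and 4.68 on the log2 scale (edgeR adjusted p = 0.0349 and 0.00127).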

How the data were processed

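Single-cell RNA was captured with a 10x 5′ kit, per the labels' protocols. Cell Ranger 2.2.0, Seurat and the mm10 (GRCm38) build are named in the submitters' processing notes. The deposited matrices hold UMI counts per gene and barcode. The other settings are not given in the sources used here. Receptor libraries were not used here.

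A barcode was kept if it had 200 or more genes and no more than 10% of UMIs from mitochondrial genes, and the highest doublet scores were removed at 0.8% per 1000 barcodes, which took out 142 and 329 HI and 210 and 283 naive barcodes. Cells were clustered in scanpy 1.11.5 (2000 variable genes, 40 components, 20 neighbours, Leiden resolution 1.5) into 39 clusters, and 88.7% of 20725 cells fell in named classes. A gate on each cell named 19460 cells. Among those that also lay in a named cluster, the gate and the cluster gave the same name for 98.9%. Cells are not replicates: counts were summed per class and library and tested with edgeR 4.0.16 (quasi-likelihood, TMM, filterByExpr, Benjamini-Hochberg over all genes) in R 4.3.3 at an adjusted p of 0.05, where p-values measure the spread between pools. An exact permutation test of 2 libraries against 2 cannot go below 0.333. On simulated counts, edgeR recovered 89% of genes changed by a log2 of 1 in BAM and 19% in classical monocytes, with 7.96% and 8.08% of calls false. Both shares of false calls exceed the nominal 0.05. Intervals are exact (Clopper-Pearson) and cover counting error only.

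Members and lists were chosen with earlier results of these data known. All members were named in every tested class. Companion genes were named in the class with the most calls, up to 4 each way per list, and like genes were the 10 with the highest correlation (at least 20 CPM over classes, or detected in at least 10% of BAM cells). Alternatives were DESeq2 1.42.0, other size factors, no filter, each library left out, a replicate block, doublets kept, stricter cells, clusters made with rapid genes and the per-cell gate. The within-cluster microglia fits, the mature neutrophil fit and the BAM fits without clusters 13 and 22, without cluster 29 and with cluster 3 were added after seeing the data. Promoters and gene positions are from RefSeq (GRCm38.p6).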

Additional observations from a re-analysis of the deposited data

Results flagged for a closer look

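For 13 pairs of a gene and 2 classes the difference of the HI change between the classes passed an edgeR interaction test with Benjamini-Hochberg adjustment. Values are differences of log2 changes with their SE and edgeR adjusted p. The log2 change of Fos was lower in microglia than in BAM (-1.34 ± 0.186, edgeR adjusted p = 0.0137), and the log2 change of Jun was also lower in microglia (-0.56 ± 0.109, edgeR adjusted p = 0.0463). Non-classical monocytes exceeded BAM in Dusp1 (0.71 ± 0.169, edgeR adjusted p = 0.00239) and microglia in Fos (1.77 ± 0.294, edgeR adjusted p = 0.0087). Classical monocytes exceeded BAM in Ier3 (3.43 ± 0.395, edgeR adjusted p = 8.16e-06), Dusp1 (2.44 ± 0.329, edgeR adjusted p = 8.07e-05) and Zfp36 (1.05 ± 0.174, edgeR adjusted p = 0.00111). They exceeded microglia in Ier3 (3.63 ± 0.359, edgeR adjusted p = 9.51e-05), Dusp1 (3.12 ± 0.307, edgeR adjusted p = 9.51e-05), Egr1 (2.46 ± 0.543, edgeR adjusted p = 0.0469) and Fos (1.90 ± 0.308, edgeR adjusted p = 0.00628). The same held for Junb (1.08 ± 0.181, edgeR adjusted p = 0.00762) and Zfp36 (1.08 ± 0.180, edgeR adjusted p = 0.00762). Leaving out 1 library ended some of these calls. The Dusp1 difference between non-classical monocytes and BAM was 0.0019 without HI 2 (edgeR adjusted p = 1) and 0.70 without naive 2 (edgeR adjusted p = 0.146). Without naive 1 the calls of Fos between non-classical monocytes and microglia (1.38, edgeR adjusted p = 0.253), of Jun between microglia and BAM (-0.51, edgeR adjusted p = 0.0782), and of Fos, Junb, Egr1 and Zfp36 between classical monocytes and microglia were lost. Without naive 2 those of Junb, Egr1 and Zfp36 between classical monocytes and microglia were lost.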

How the results depend on the processing

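Counts of genes called in BAM (604) were 1793 with no filter, 1636 with the replicate block, 919 with cluster 3 and 79 to 1357 with 1 library left out. Within BAM clusters 0, 1, 2, 4, 7, 8, 9, 10, 11 and 14 they were 402, 154, 114, 203, 73, 81, 148, 68, 24 and 110. Members lower in BAM (2) numbered 4 with no filter, with the block, in cluster 0 and with cluster 3, 1 in each of clusters 1, 2, 7, 8 and 10, 0 in clusters 11 and 14 and with clusters made with rapid genes, and 0 to 3 with 1 library left out. Members higher in BAM (0) numbered 2 with no filter, 1 with the block and in cluster 14, and 0 to 3 with 1 library left out. The log2 change of Junb turned to -0.24, -0.026, -0.14, -0.038, -0.056 and -0.44 in BAM clusters 0, 1, 2, 8, 9 and 11, that of Egr1 to -1.54, -0.78, -0.58 and -2.69 in clusters 0, 1, 4 and 8 and to -0.20 without clusters 13 and 22, and that of Fos to 0.074 in cluster 8. The cause was not tested.

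Genes called in microglia (14) numbered 77 in DESeq2, 730 with no filter, 822 with the block, 69 with doublets kept, 45 with stricter cells, 66 with the gate, 658, 3 and 3 in clusters 5, 12 and 16, and 88 to 1460 with 1 library left out. Members lower there (2) numbered 4 with no filter and with the block, 6 in cluster 5, 0 in clusters 12 and 16 and 3 to 6 with 1 library left out, and members higher (0) numbered 0 to 1. In non-classical monocytes genes called (238) numbered 84 in DESeq2, 394 with no filter, 566 with the block, 135 with rapid-gene clusters and 165 to 370 with 1 library left out. Members higher (1) numbered 0 in DESeq2 and with rapid-gene clusters, 3 with no filter and with the block, and 0 to 4 with 1 library left out, and members lower (0) numbered 1 with rapid-gene clusters and 0 to 2 with 1 library left out. In classical monocytes genes called (69) numbered 492 with no filter, 288 with the block, 21 with rapid-gene clusters and 81 to 345 with 1 library left out, and members higher (4) numbered 0 with rapid-gene clusters and 3 to 6 with 1 library left out. In dendritic cells (0) they numbered 91 with no filter, 65 with the block and 1 to 20 with 1 library left out. In mature neutrophils genes called (20) numbered 92 to 422 and members higher (0) 1 to 6 with 1 library left out.

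Against BAM, members lower in non-classical monocytes (1) numbered 3 with the gate, and in microglia (3) 1 to 4 with 1 library left out. Of the differences between classes, members higher numbered 2 with RLE size factors and 0 to 2 with 1 library left out for non-classical monocytes against BAM (1), and with 1 library left out 0 to 2 for microglia against BAM (0), 4 to 6 for classical monocytes against BAM (3), 0 to 6 for non-classical monocytes against microglia (1), 2 to 7 for classical monocytes against microglia (6) and 0 to 2 between the monocyte classes (0). Members lower in microglia against BAM (2) numbered 2 to 7. A fit without 1 library leaves a group with 1 library, which is assumed to vary like the other group. The labels do not tie replicate numbers to runs, and deviations of same-numbered libraries correlated at 0.069 to 0.310 over the 5 classes, so the block is given here only. With it Fos (-0.50, edgeR adjusted p = 0.00266), Fosb (-1.04, 0.0198) and Egr1 (0.61, 0.0432) also passed in BAM, Fosb (-2.28, 0.000371) and Jun (-0.43, 0.00193) in microglia, Junb (0.42, 3.48e-06) and Egr1 (0.65, 0.000762) in non-classical monocytes and Jun (0.82, 0.0301) and Dusp1 (1.39, 0.0182) in classical monocytes. Doublets kept gave no classical monocyte class, and the gate gave only BAM, microglia and non-classical monocytes. With 2 pools per group and few monocytes, real changes can be missed. On simulated counts edgeR recovered 19% of genes changed by a log2 of 1 in classical monocytes, against 89% in BAM. False calls made up 8.08% and 7.96% of the calls there.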
